A study of Mus musculus with 209 samples.

Results

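The machinery that starts transcription of protein-coding genes was followed through 77 of the 24450 gene symbols in the oocyte and 2-cell count table. They are the subunits of RNA polymerase II (Polr2a to Polr2m), the general transcription factors TFIIA, TFIIB, TFIIE, TFIIF and TFIIH, the TBP-associated factors (TAFs) and Mediator. Members were taken by symbol from the oocyte and 2-cell count tables and from both epiblast tables, leaving out the germ-cell paralogs Taf4b and Taf7l. By role they were 12 core subunits of the polymerase, 14 TAFs of TFIID, 30 Mediator subunits, 5 core subunits of TFIIH, 3 genes of TFIIA, 1 of TFIIB, 2 of TFIIE and 2 of TFIIF. The symbol rule also took in Polr2m, Taf15, the TAF-like SAGA subunits Taf5l and Taf6l, the antisense transcript Med9os, and Taf1b, Taf1c and Taf1d, which belong to SL1, the selectivity factor of RNA polymerase I.

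RNA polymerase II cannot find a start site alone. TFIID, made of TBP and the TAFs, binds core promoters, TFIIA and TFIIB bring in the polymerase with TFIIF, TFIIE and TFIIH open the DNA, and Mediator passes signals from enhancer-bound activators to the polymerase. The mouse egg is transcriptionally silent at metaphase II (MII), lives on RNA and protein stored during growth, and the embryo starts its own genome in earnest at the 2-cell stage. Its transcription machinery thus starts from what the egg has stored.

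The series deals with DNA methylation and hydroxymethylation in mouse embryonic and germline development, and 54 of its 209 samples are RNA libraries. Polyadenylated RNA was sequenced from 33 single MII oocytes, 14 wild-type (WT) and 19 labelled N14 maternal KO, and from 17 single 2-cell samples, 8 WT and 9 KO. N14 is read here as Nlrp14, and KO means that the mother lacked the gene. Mothers were superovulated C57BL/6 females aged 6 to 8 weeks, and oocytes were collected 14 to 15 hours and 2-cell samples 42 to 43 hours after hCG. The protocols name C57BL/6 and PWK fathers, and the label of a 2-cell RNA library does not give its father's strain. Epiblast, the layer that forms the body, was sequenced as 2 samples from cultured embryos (IVC) and 2 labelled E6.5 ND, all from WT C57BL/6 parents, and the meaning of ND is not given. No label says that oocytes or 2-cell samples of a group came from different mothers, so each group was treated as 1 sample and no test was made between such groups.

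Nlrp14 itself lay between 225 and 3307 CPM (counts scaled to a common library total) in WT oocytes and between 0.643 and 73.2 in KO oocytes. At the 2-cell stage it lay between 105.6 and 477 CPM in WT, with a median of 287, and between 29.4 and 86.4 in KO, with a median of 67.3, above the KO oocyte median of 37.1. Only 10 WT and 7 KO oocyte libraries held ERCC spike-in RNA above 0.01% of counts, as all 2-cell libraries did, and unless said otherwise these were used. Their depth ran from 3933604 to 8966801 counts in WT oocytes, 4682617 to 10439374 in KO oocytes, 3788348 to 10303580 in WT and 2704050 to 15007301 in KO 2-cell libraries. The other oocytes stand apart: in the 3 WT oocytes with almost no spike-in and under 1% of Rn45s, the ribosomal RNA precursor, Polr2d lay between 384 and 529 CPM, against 47.2 to 166 in the WT spike-in libraries. Summed CPM of 8 oocyte marker genes had medians of 5298 in WT and 5856 in KO oocytes, 5404 in WT and 9807 in KO 2-cell libraries. Summed CPM of 6 genes of 2-cell genome activation was at most 12.1 in any spike-in oocyte. It was 423 to 1026 in WT 2-cell libraries, with a median of 822, and 163 to 2386 in KO ones, with a median of 808.

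Between 71 and 77 of the 77 members had a count in each of these libraries. Together they took 1.08 to 1.22% of counts in WT oocytes, with a median of 1.148%, and 1.08 to 1.23% in KO oocytes, with a median of 1.14%. In WT 2-cell libraries they took 1.16 to 1.36%, with a median of 1.27%, and in KO 2-cell libraries 1.10 to 1.26%, with a median of 1.146%. The summed share of counts was thus much alike before and after activation, while single subunits changed far more. Abundant members weigh most in such a sum, and a share of counts does not give the amount of RNA per sample.

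The promoters of 67 members were found in the RefSeq table (GRCm38.p6), and 5 are shown because they stand for the patterns described below. Med29, a Mediator subunit, was almost absent from oocytes. Polr2e is a polymerase subunit that was higher in WT 2-cell samples and lower in KO. Polr2j was higher at the 2-cell stage with a low share of paternal counts. Polr2c was abundant in eggs, and Taf3 was abundant in eggs and much lower afterwards. Each sequence covers the 150 bases before the annotated start, 5' to 3' on the gene's strand, and none of the 5 windows overlaps another RefSeq gene. Capitals mark matches on either strand to the GC box GGGCGG, the CCAAT box (read as ATTGG on the other strand) and the ETS core CCGGAAG (read as CTTCCGG on the other strand).
Med29 (chr7:28392691-28392840, minus strand): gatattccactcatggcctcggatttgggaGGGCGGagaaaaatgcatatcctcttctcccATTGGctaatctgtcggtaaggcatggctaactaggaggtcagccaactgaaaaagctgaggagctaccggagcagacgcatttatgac
Polr2e (chr10:80039660-80039809, minus strand): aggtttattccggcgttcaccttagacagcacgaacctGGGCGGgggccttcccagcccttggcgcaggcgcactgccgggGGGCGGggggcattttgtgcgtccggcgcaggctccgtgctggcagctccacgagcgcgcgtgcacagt
Polr2j (chr5:136116541-136116690, plus strand): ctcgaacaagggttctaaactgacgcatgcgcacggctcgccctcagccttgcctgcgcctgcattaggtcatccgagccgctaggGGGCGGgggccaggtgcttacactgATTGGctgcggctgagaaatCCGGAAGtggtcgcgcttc
Polr2c (chr8:94857300-94857449, plus strand): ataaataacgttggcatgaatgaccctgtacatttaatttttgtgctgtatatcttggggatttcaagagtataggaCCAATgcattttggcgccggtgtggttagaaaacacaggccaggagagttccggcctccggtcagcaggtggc
Taf3 (chr2:10048610-10048759, minus strand): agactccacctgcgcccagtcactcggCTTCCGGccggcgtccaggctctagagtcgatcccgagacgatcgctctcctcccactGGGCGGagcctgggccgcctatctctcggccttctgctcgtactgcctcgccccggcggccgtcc

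Over the same 150 bases, searched on both strands, GGGCGG was found in 42 of the 67 members (62.7%) and in 31.3% of the 27025 genes of the table. CCGGAAG was found in 15 members (22.4%) and in 6.33% of all genes. CCAAT was found in 17 members (25.4%) and 27.7% of all genes, and the TATA box TATAAA in 6 members (8.96%) and 8.89% of all genes. TAATCC, the core bound by Otx and Obox homeodomain factors, was found in 1 member (1.49%) and 4.17% of all genes. Matches to different motifs may overlap. The shares of all genes count every gene of that table, expressed in these samples or not. Shares among expressed genes alone were not computed. Of 23 members with a promoter that exceeded 2-fold in WT 2-cell samples over WT oocytes, 17 held GGGCGG and 7 CCGGAAG. Of 27 members in between, 15 and 6 did, and of 9 that were lower by as much, 4 and 1 did. A match describes the letters and is not evidence of binding.

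What happened to the stored machinery at the normal 2-cell stage was asked by comparing WT 2-cell samples with WT oocytes. A member was compared when 1 of the pools reached 10 CPM, and counted as higher or lower from 2-fold on. Of 69 such members 27 were higher at the 2-cell stage and 10 lower. Over all 8478 such genes 42.1% were higher and 12.8% lower, so the members' counts were near the background. Their median log2 ratio was 0.46, against 0.69 over all genes, which is -0.23 relative to the median gene. Every WT 2-cell library lay above every WT oocyte for 13 members and below for 6, against 23.7 and 8.29% of all genes. The scale decides the sign for many of them: 42 of the 69 ratios were above 0 on CPM, 29 with TMM factors and 24 when counts were scaled to the spike-ins. The scalings shift all log2 ratios of this comparison by -0.84 (TMM), -0.93 (DESeq2 size factors) and -1.12 (ERCC), and groups are therefore also given relative to the median gene, which no scaling changes.

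The subunits of the polymerase itself stood on the higher side. Of 11 core subunits compared, 9 were higher and 0 lower, with a median log2 ratio of 1.38 on CPM, 0.54 with TMM, 0.45 with DESeq2 factors and 0.26 on the ERCC scale, so the median did not change sign, while the count of higher subunits fell to 4, 4 and 3 and 1 was then lower. Relative to the median gene the core subunits lay at 0.69. Small subunits led: Polr2k, which is shared by all nuclear RNA polymerases, had 0 to 6.36 CPM in WT oocytes, with a median of 2.05, and 4.66 to 123 in WT 2-cell libraries, with a median of 64.5. The pools held 2.48 and 55.1 CPM, a log2 ratio of 4.47 with a 95% counting interval of 4.24 to 4.71. The lowest 2-cell library lay inside the oocyte range, and all others were above it.

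Polr2l, another subunit shared among polymerases, had 4.63 to 23.6 CPM in WT oocytes, with a median of 14.8, and 25.3 to 302 in WT 2-cell libraries, with a median of 157. Its log2 ratio was 3.33 (3.23 to 3.43), and no 2-cell library overlapped the oocytes. Polr2h, also shared, had 7.10 to 17.7 CPM in oocytes, with a median of 12.8, and 14.7 to 258 at the 2-cell stage, with a median of 137, a log2 ratio of 3.25 (3.14 to 3.35). Only the lowest 2-cell library of Polr2h fell within the oocyte range. Polr2i, a subunit of polymerase II alone whose gene overlaps Tbcb, had a ratio of 2.09 (1.95 to 2.24).

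The second largest subunit Polr2b, which forms the catalytic centre with Polr2a, lay between 15.3 and 29.3 CPM in oocytes, with a median of 19.4. It lay between 39.8 and 119 at the 2-cell stage, with a median of 69.9, without overlap and at a log2 ratio of 1.64. Polr2e, Polr2f, Polr2j and Polr2d followed at 1.38, 1.35, 1.11 and 1.02. The last pair is not firm: on the ERCC scale Polr2j was at -0.01 and Polr2d at -0.10, and with all WT oocytes Polr2d was at -0.34. Polr2g was at 0.26.

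Polr2c was among the members that eggs held in quantity. This subunit, which with Polr2j forms the platform on which the enzyme is assembled, lay between 883 and 1621 CPM in WT oocytes, with a median of 1083, and between 667 and 1255 in WT 2-cell libraries, with a median of 741. The pools held 1170 and 873 CPM, a log2 ratio of -0.42 (-0.44 to -0.40). The groups overlapped. Polr2a, the largest subunit, whose tail coordinates RNA processing, stayed under the 10 CPM limit in both WT pools: it lay between 1.60 and 12.9 CPM in oocytes, with a median of 6.05, and between 4.13 and 20.6 at the 2-cell stage, with a median of 9.68. CPM are not divided by transcript length, so these levels do not rank the subunits against each other.

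**Figure D1:**
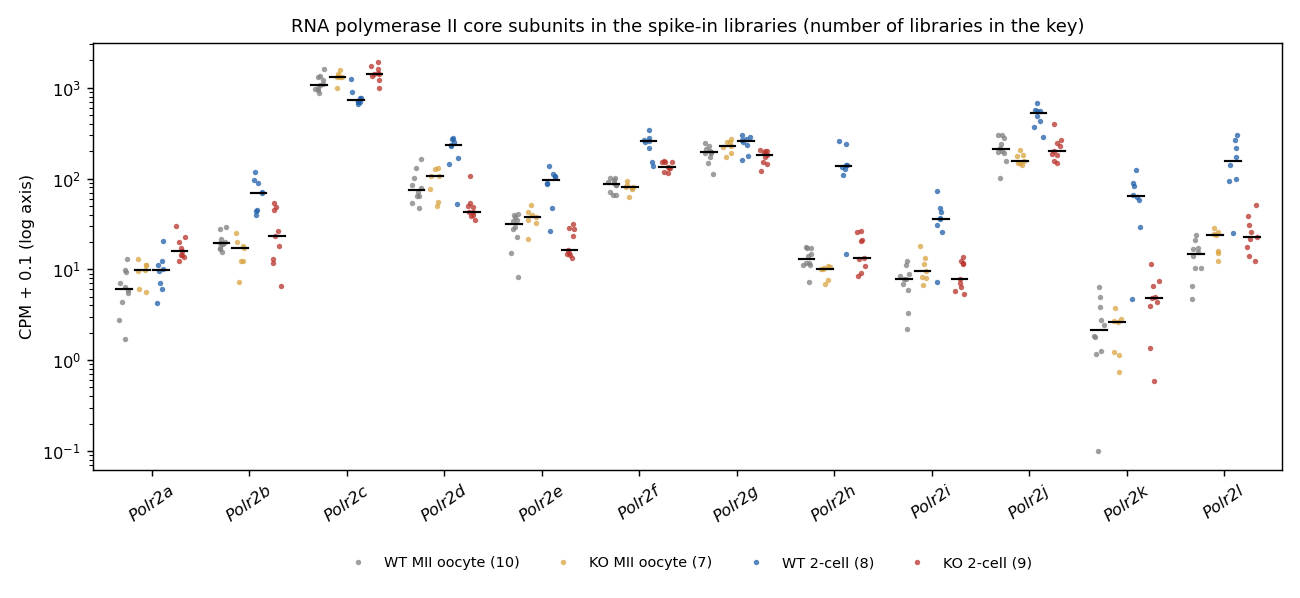
CPM on a log axis of the 12 core subunits of RNA polymerase II in single spike-in libraries, coloured by group, with a bar at each group's median. Polr2k, Polr2l and Polr2h are far higher in most WT 2-cell libraries than in the other groups, while Polr2c lies between 667 and 1915 CPM in all 4 groups.

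TFIID did not follow the polymerase. Of its 14 TAFs, 2 were higher and 2 lower in WT 2-cell samples, with a median of 0.03 on CPM and, with the sign reversed, -0.81 with TMM and -1.09 on the ERCC scale. Relative to the median gene they lay at -0.66. Taf3, which reads histone H3 lysine trimethylation at promoters, lay between 794 and 1228 CPM in WT oocytes, with a median of 864, and between 153 and 276 in WT 2-cell libraries, with a median of 210. Its log2 ratio was -2.14 (-2.17 to -2.10), and every 2-cell library lay below every oocyte. Taf7, a TAF that binds Taf1 and restrains it, lay between 580 and 863 CPM in oocytes and between 158 and 312 at the 2-cell stage, with medians of 725 and 269, again without overlap, and a ratio of -1.63. Taf2 and Taf11 were the TAFs on the higher side, at 1.35 and 1.18.

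TAF paralogs differed within pairs. On CPM, Taf9, whose gene overlaps Ak6, stayed near its oocyte level at 630 and 658 in the pools. Its X-linked paralog Taf9b went from 270 to 370, a log2 ratio of 0.46. The ERCC scale shifts both ratios by -1.12, so neither reading holds there. Taf5 was at -0.01 and Taf6 at -0.20. Their SAGA counterparts were scarcer in oocytes: Taf5l went from 2.17 to 11.6 CPM, a log2 ratio of 2.42, and Taf6l from 0.308 to 4.01 CPM, which is under the limit for comparison. Taf1d of the SL1 complex, whose gene also hosts small nucleolar RNAs, lay between 13.8 and 45.4 CPM in WT oocytes, with a median of 24.9, and between 81.6 and 638 in WT 2-cell libraries, with a median of 422. Its ratio was 3.75 (3.68 to 3.83), without overlap.

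Among the other general factors, Gtf2a1, the large TFIIA subunit, and Gtf2h5, the smallest TFIIH subunit, were on the higher side. Gtf2a1 lay between 622 and 896 CPM in the spike-in WT oocytes, with a median of 669, and between 1196 and 1788 at the 2-cell stage, with a median of 1639. The log2 ratio was 1.17 (1.152 to 1.186) without overlap, but the 3 WT oocytes low in spike-in and Rn45s held 1642 to 3637 CPM, from within the 2-cell range to above it. Its germ-cell paralog Gtf2a1l was at 8.84 and 9.22 CPM in the WT pools, and at 121 to 233 CPM in those same 3 oocytes. Gtf2h5 lay between 9.41 and 22.9 CPM in oocytes and between 28.9 and 206 at the 2-cell stage, a ratio of 3.02 without overlap. The other measured TFIIH core subunits went the other way: Gtf2h2 was at -1.64, Gtf2h3 at -1.12 and Gtf2h1 at -0.38, while Gtf2h4 was under the limit. Gtf2b, the only TFIIB gene, was at 114 to 601 CPM in oocytes and 117 to 216 at the 2-cell stage, with medians of 417 and 166 and a ratio of -1.24 with overlap. The TFIIF pair was split, with Gtf2f1 at 2.29 and Gtf2f2 at -1.12.

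Mediator was split by subunit more than by module. On CPM the medians of the head, middle and tail were 0.21, 0.41 and 0.35, but -0.63, -0.43 and -0.48 with TMM and -0.91, -0.71 and -0.77 on the ERCC scale. Of 7 head subunits 2 were higher and 2 lower, of 9 in the middle 3 were higher, and of 8 in the tail and its junction with the head 3 were higher. Med29, at that junction, was the most changed member. It had 0 to 1.43 CPM in WT oocytes, with a count in 6 of 10, and 27.9 to 392 in WT 2-cell libraries, with a median of 206. The pools held 18 and 8036 counts, a log2 ratio of 9.40 with a counting interval of 8.74 to 10.16, and 10.00 without WT oocyte replicate 5.

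Med1, which nuclear receptors contact, lay between 18.5 and 69.2 CPM in oocytes, with a median of 62.4, and between 164 and 267 at the 2-cell stage, with a median of 212. The ratio was 1.96 (1.90 to 2.01) without overlap. Med14, the X-linked backbone that joins the modules, was at 1.74, also without overlap. In the opposite direction, Med22 of the head lay between 126 and 233 CPM in oocytes and between 24.1 and 54.4 at the 2-cell stage, with medians of 172 and 30.3. Its ratio was -2.21 (-2.29 to -2.14), without overlap. Med20, also in the head, was at -1.22 with overlap. Med17, the central subunit of the head, is not firm: 1.06 with spike-in libraries, -0.44 with all oocytes and -0.06 on the ERCC scale.

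The kinase module sits on Mediator and blocks its contact with the polymerase. Its scaffold Med13 went from 65.1 to 183 CPM, a log2 ratio of 1.49, and Med13l from 27.2 to 44.6, a ratio of 0.71. Med12l, whose gene spans several P2ry genes, went from 8.03 to 15.9 CPM, while Med12 had a median of 0.917 CPM in oocytes and 2.71 at the 2-cell stage, under the limit. Of the partners outside the list, cyclin C (Ccnc) was at 2.67 and its kinase Cdk8 at 0.28.

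**Figure D2:**
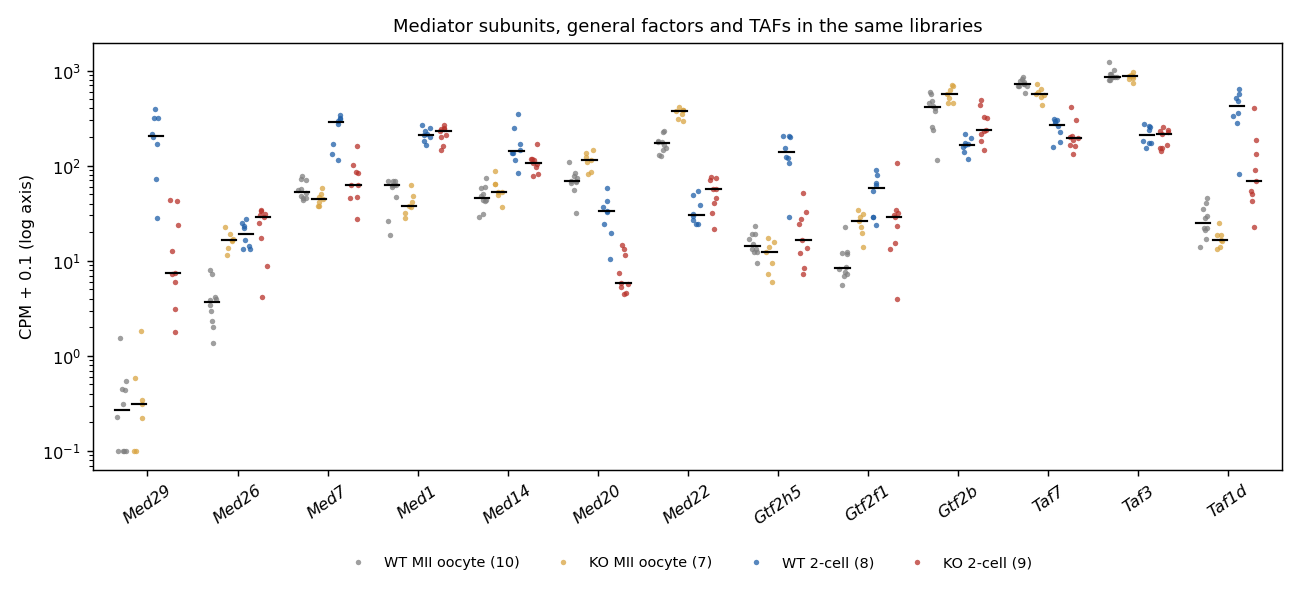
CPM on a log axis of Mediator subunits, TAFs and general factors in single spike-in libraries, coloured by group, with a bar at each group's median. Med29 is near 0 in oocytes and at 27.9 to 392 CPM in WT 2-cell libraries, while Taf3, Taf7 and Med22 are higher in oocytes than at the 2-cell stage in both genotypes.

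The same stage comparison in the KO, which shares no library with the WT comparison, had fewer members on the higher side. Of 68 members compared, 8 were higher and 15 lower in KO 2-cell samples than in KO oocytes, against 19.5 and 16.3% of 7153 genes. The median was 0.13, with 0.15 over all genes, and the scalings shift the ratios by -0.42 (TMM), -0.46 (DESeq2) and -0.79 (ERCC), so that 38 members were above 0 on CPM, 27 with TMM and 16 on the ERCC scale. Of the 11 polymerase core subunits compared, 0 were higher and 2 lower, with a median of 0.26 on CPM that became -0.16 with TMM and -0.52 on the ERCC scale. Every KO 2-cell library lay above every KO oocyte for 6 members and below for 10, against 10.9 and 12.4% of genes. The lower pair of core subunits was Polr2d at -1.08 and Polr2e at -1.01, both higher at the 2-cell stage in WT, and with all KO oocytes Polr2e was at 0.07.

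The lists of lower members in WT and KO overlapped. Among 65 members compared in both, 9 were at least 2-fold lower in WT and 15 in KO, and 8 were in both lists, which is 88.9% of the WT list and 53.3% of the KO list, against 61.95 and 58.5% over all genes. Taf3 was at -2.10 in KO, from 742 to 976 CPM in oocytes to 144 to 257 at the 2-cell stage, and Taf7 was at -1.59. Med22 was at -2.92 and Med20 at -3.80 in KO. Med20 lay between 81.6 and 147 CPM in KO oocytes and between 4.36 and 14.6 in KO 2-cell libraries, with medians of 116 and 5.76 and no overlap.

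The higher lists were of unequal length. In the same 65 members 24 were at least 2-fold higher in WT and 7 in KO, and 6 were in both, which is 25.0% of the WT list and 85.7% of the KO list, against 51.9 and 84.02% over all genes. Med1 was at 2.47 in KO, from 28.2 to 61.9 CPM in oocytes to 146 to 270 at the 2-cell stage, without overlap. Med28, Med6 and Med13 of Mediator were at 1.53, 1.41 and 1.11 in KO. Gtf2a1 was at 1.06, but at -0.27 with all KO oocytes, since 10 of those held 1615 to 4424 CPM. Taf1d was at 2.26 and Med29 at 4.76 (4.20 to 5.39) in KO, and at 6.02 without KO oocyte replicate 15. Across the 65 members the log2 ratios of both genotypes had a Pearson correlation of 0.76, against 0.85 across 6878 genes; members are not independent replicates, and the scaling does not enter it. On CPM the KO ratio was below the WT ratio in 45 of the 65, with a median difference of -0.50. Over all genes it was below in 4096 of the 6878, with a median difference of -0.20. Unlike the correlation, these counts and differences depend on the scaling. TMM shifts the WT ratios by -0.84 and the KO ratios by -0.42, and ERCC scaling by -1.12 and -0.79, so each lowers the WT ratios more.

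**Figure D3:**
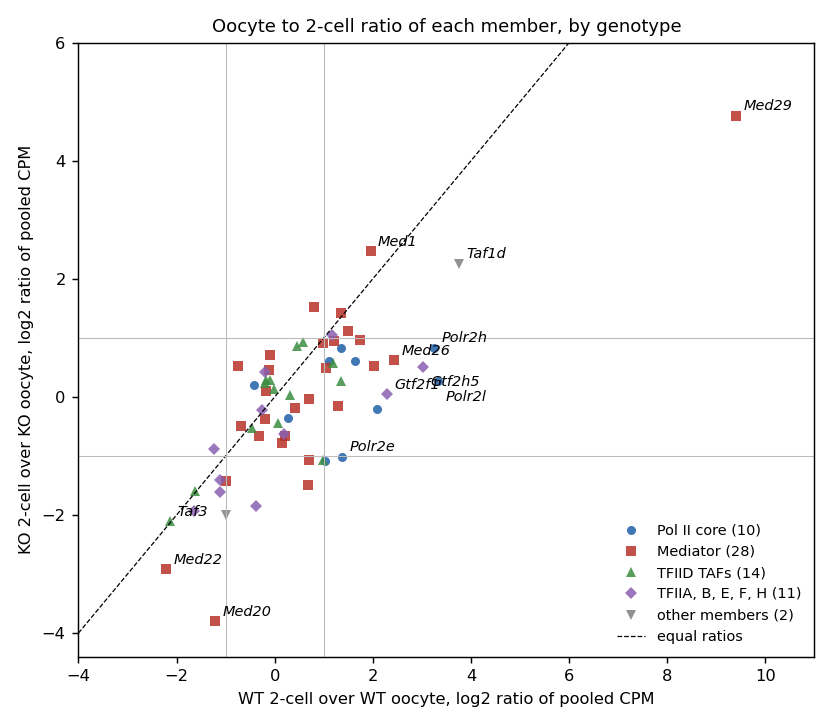
Log2 ratio of pooled CPM, 2-cell over oocyte, in WT (x axis) and KO (y axis), 1 point per member compared in both genotypes and coloured by role; the diagonal marks equal ratios. Polr2l, Polr2h, Polr2e and Med29 lie well below the diagonal, while Taf3 and Taf7 lie near it at ratios of -1.59 or lower.

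Set directly against each other, KO 2-cell samples held less RNA of most core polymerase subunits than WT 2-cell samples on the CPM scale. Of 71 members compared, 3 were higher in KO and 21 lower, against 5.96 and 31.6% of 8416 genes, and the median was -0.39, with -0.35 over all genes. No member had every KO library outside the WT range, against 0.333% of genes above it and 1.37% below. All 21 lower members had each of the 9 KO libraries below the WT median. They were picked by their pooled ratio in these same libraries, so this describes them and is no separate support. The share of all lower genes with this trait is not given here. The scalings shift these ratios by 0.46 (TMM), 0.50 (DESeq2) and 0.82 (ERCC), which changes the counts to 12 higher and 16 lower with TMM and to 19 higher and 11 lower on the ERCC scale. Without KO 2-cell replicate 4, 1 member was higher on CPM, and without WT 2-cell replicate 8, 9 were.

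The 12 core subunits had a median of -1.62 on CPM, -1.16 with TMM, -1.11 with DESeq2 factors and -0.79 on the ERCC scale, so they were lower in KO on each scale, and relative to the median gene they lay at -1.27. On CPM 7 were at least 2-fold lower and 0 higher, and on the ERCC scale 5 lower and 2 higher. Polr2k had 0.484 to 11.46 CPM in KO 2-cell libraries, with a median of 4.70, against the WT median of 64.5, a log2 ratio of -3.46 (-3.63 to -3.29). Polr2h was at 8.43 to 26.6 CPM in KO, with a median of 13.1, a ratio of -2.88, and Polr2l at 12.2 to 50.7, with a median of 22.4, a ratio of -2.49 (-2.57 to -2.41). In each of these the KO libraries lay near the oocyte level, and the only WT library within their range was replicate 8.

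Without that library 14 of 71 members had every KO 2-cell library below every WT one and 3 had every one above, against 13.4 and 3.53% of 8648 genes. Of the 14, 6 were core subunits (Polr2d, Polr2e, Polr2h, Polr2i, Polr2k and Polr2l), 5 were Mediator subunits (Med4, Med6, Med8, Med11 and Med29), and Gtf2h5, Taf1 and Taf9 made up the rest. The 3 above were Polr2c, Med15 and Med27, whose medians in WT oocytes were 1083, 115 and 778 CPM. Polr2h then lay between 108 and 258 CPM in 7 WT libraries against a highest KO value of 26.6, and Med27 between 298 and 731 against a lowest KO value of 856. This count was made after the values of replicate 8 were seen.

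Polr2e was at 13.2 to 31.1 CPM in KO, with a median of 16.04, against 26.1 to 137 in WT, with a median of 96.9, a log2 ratio of -2.09. Polr2d, Polr2i and Polr2b were at -1.98, -1.80 and -1.43. Polr2c and Polr2a stood on the other side. Polr2c lay between 999.6 and 1915 CPM in KO, with a median of 1434, and its ratio was 0.83 (0.82 to 0.85). Polr2a lay between 12.1 and 29.6 CPM in KO, with a median of 15.995, and its ratio was 0.80 (0.63 to 0.96), with overlap of the groups in both genes. The summed oocyte markers were also higher in KO 2-cell libraries, with medians of 9807 and 5404 CPM, and their part in the result was not tested.

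Mediator's modules differed in their medians. The 7 head subunits had a median of -1.21 on CPM, -0.75 with TMM and -0.39 on the ERCC scale, with 4 at least 2-fold lower on CPM. The 8 subunits of the tail and junction had a median of 0.67 on CPM and 1.496 on the ERCC scale, which is 1.02 above the median gene. The 9 subunits of the middle were at -0.20 on CPM and, with the sign reversed, 0.26 with TMM. Med29 ran against its module: it lay between 1.69 and 43.3 CPM in KO, with a median of 7.38, against 27.9 to 392 in WT, a ratio of -3.94 (-4.05 to -3.83). Med15 of the tail, which activators bind, lay between 137 and 285 CPM in KO and between 29.6 and 221 in WT, with medians of 158 and 65.2 and a ratio of 0.90. The highest WT library of Med15 was replicate 8, and without it the ratio was 1.53. Med25 and Med30 of the tail and junction were at 1.02 and 0.87, and without WT replicate 8 Med25 was at 1.52.

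TFIID again changed little on CPM, with 1 of 14 TAFs higher, 1 lower and a median of -0.08, but 0.38 with TMM and 0.75 on the ERCC scale. Taf8, needed for the entry of TAFs into the nucleus, was the higher TAF at 1.58 (1.501 to 1.65), and 2.26 without WT replicate 8. It lay between 30.0 and 237 CPM in KO and between 9.48 and 85.8 in WT, with medians of 54.2 and 24.7 and overlap. Taf1, the largest TAF, was the lower TAF at -1.52. Gtf2b was at 0.87, between 146 and 496 CPM in KO. Gtf2a1l was at 1.68, but at 0.79 without KO replicate 4, which held 73.0 CPM. Gtf2h5 was at -2.90 (-2.999 to -2.81), between 7.13 and 51.8 CPM in KO. Med20 was lower in both steps and reached -1.86 between the 2-cell groups.

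Whether oocytes already differed by genotype was asked within library sets. In spike-in libraries 6 of 65 members were higher in KO and 2 lower, against 9.41 and 3.69% of 6375 genes, with a median of -0.01. Every KO oocyte lay above every WT oocyte for 6 and below for 2, against 7.07 and 2.90% of genes. On the ERCC scale, which shifts the ratios by 0.49, 17 were higher and 0 lower. The higher members were Med26, Gtf2a1l, Gtf2f1, Med25, Taf8 and Med22, at 2.21, 1.60, 1.35, 1.28, 1.19 and 1.05, and the lower ones Taf15 and Med6 at -1.44 and -1.35. In the low-rRNA set of 3 WT and 10 KO oocytes 0 of 55 members reached 2-fold in either direction, against 1.98 and 2.03% of 5957 genes, and of the 8 named, Med25 and Taf15 were under the limit for comparison there and the other 6 lay between 0.01 and 0.61. With all oocytes 1 of 60 was higher and 0 lower, against 2.04 and 2.39% of 6325 genes. For these 6 a difference of 2-fold was thus seen in the spike-in set alone, and the difference between sets was not tested.

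Counts split by parental allele were used to ask which members the embryo had begun to make from its own genome. An oocyte has no paternal genome, so a paternal transcript was made by the embryo or came with the sperm, and equal output of both alleles without stored RNA would give a share of 50%. The tables assigned 37.0% of WT and 39.5% of KO 2-cell counts to an allele, and 62 of the 77 members had 50 or more such counts in each genotype. The 8 oocyte markers, which serve as the measured background, had a median paternal share of 0.128% in WT 2-cell samples, but Nlrp5 had 3.66% and Zp3 16.7% (5.53% in KO). Member shares up to that of Zp3 therefore lie within the range of the markers. Shares above 50%, such as that of Polr2k, may not be read as more paternal than maternal output, because the accuracy of the assignment was not given in the sources used here.

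In WT 2-cell samples the members' median paternal share was 25.0%, against 17.7% over 9419 genes, and in KO 2-cell samples 4.52%, against 3.37%. A share of 25% or more was found for 31 members in WT and 6 in KO, against 40.8 and 16.4% of all genes. In 35 members the share was at least 10 percentage points lower in KO and in 0 at least 10 points higher, against 46.4 and 2.86% of all genes; a member under 10% in WT could not be counted as lower. Over all genes the paternal share per library ran from 4.00 to 24.7% in WT and from 1.21 to 8.68% in KO. Stored maternal RNA enters the denominator, so a lower share does not by itself measure less paternal output.

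The core subunits had a median share of 36.6% in WT and 15.6% in KO over 11 genes, 8 of which were at least 10 points lower in KO. Polr2k had the highest share of any member, 73.9% (exact Clopper-Pearson interval 71.2 to 76.3%) in WT and 47.7% in KO. The KO value of Polr2k rests on 155 allele counts (39.7 to 55.9%). Single KO libraries varied widely: the 6 with enough allele counts ran from 10 to 100%, with a median of 65.05%. The median over 8 WT libraries was 72.3%. Polr2l had 39.9 and 6.47%, Polr2e 45.4 and 23.4%, and Polr2g, which hardly changed in level, 39.4 and 7.43%. Polr2b was alike in both, at 36.6 and 36.4%. The abundant egg transcript Polr2c had 4.45% in WT and 0.293% in KO.

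A higher level on CPM did not always come with a high paternal share. Polr2j and Polr2f, both more than 2-fold higher in WT 2-cell samples, had paternal shares of 5.90 and 17.2%. These are 183 of 3100 and 878 of 5091 allele counts, so paternal counts were present. Gtf2a1 had 3.30% (3.13 to 3.48%) of 40087 allele counts, and 0.390% in KO. Med13 was at 9.79% and Med1 at 15.2%. The size of these rises depends on the scale: the ERCC scale shifts all level ratios by -1.12, and Polr2j was there at -0.01. With all WT oocytes 0 of 3 TFIIA genes were at least 2-fold higher at the 2-cell stage. By contrast Med29 had 54.4% (52.8 to 56.1%), Polr2m 56.7%, Gtf2h5 54.0% and Taf1d 51.4%, close to the share of a gene with no stored RNA. The 24 members at least 2-fold higher in WT 2-cell samples had a median share of 35.4%, with a range of 3.30 to 73.9%, and the 30 in between had a median of 17.2%.

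Nor did a lower level mean that the embryo made none. The 6 members at least 2-fold lower in WT 2-cell samples with enough allele counts had a median share of 34.9%, from 3.86 to 48.1%. Taf3 and Med22 had 3.86 and 4.13%, so that nearly all of their allele counts were maternal. Taf7 had 35.9%, Gtf2h3 39.5% and Med20 33.9%, although their levels were lower than in oocytes. In KO those shares were 11.8, 3.86 and 0%: 0 of 358 allele counts of Med20 were paternal, which allows a share of up to 0.838% when the limit is set at 3 counts of the total, as for other zeros here. Across 60 members the stage ratio and the paternal share in WT had a Pearson correlation of 0.44 and a Spearman correlation of 0.33, given as a description over genes measured in the same libraries.

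TFIID stood lower than the polymerase in paternal share, with medians of 14.4% in WT and 1.86% in KO over 12 TAFs. Taf4, a scaffold of TFIID, had 8.43% in WT and 0 of 1703 allele counts in KO, which allows a share of up to 0.176%. In Mediator the head had a median of 33.9% in WT and 8.45% in KO, the middle 26.6 and 6.71%, and the tail and junction 7.72 and 0.377%. The lowest shares in WT were those of Med30 at 0.103%, Taf9b at 0.362%, Med15 at 1.76%, Taf10 at 1.85%, Med12l at 2.96% and Med27 at 3.06%. Med30, Med15 and Med27 all belong to the tail and junction. The highest after Polr2k were Taf5l at 62.2%, Med4 at 61.5%, Polr2m and Med18 at 56.7% and Med29, and the same genes in KO had 25.4, 22.8, 6.37, 8.45 and 51.1%. Med29, Taf1d with 45.2% and Gtf2f1 with 40.8% (46.5% in WT) thus had KO shares near those of WT, although their CPM were lower in KO.

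**Figure D4:**
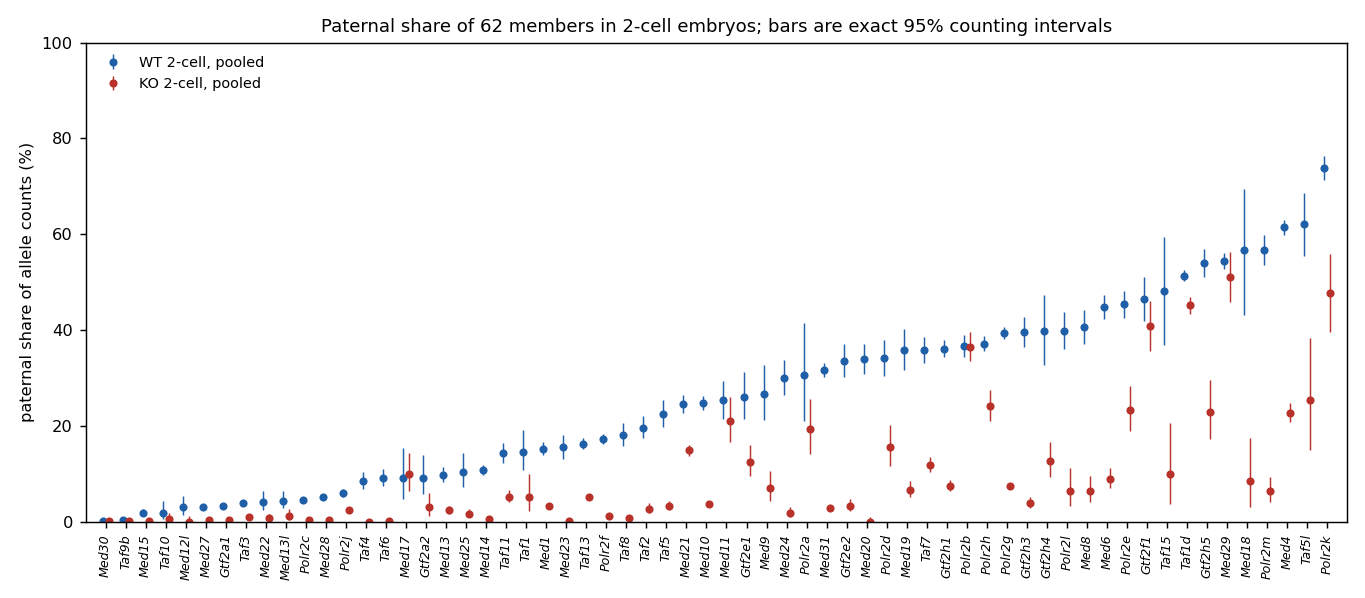
Pooled paternal share of allele-assigned counts in percent (y axis) for the 62 members with 50 or more allele counts in each genotype. Members are ordered along the x axis by their share in WT 2-cell samples (blue), with KO 2-cell samples in red. Bars are exact 95% counting intervals. The KO point lies below the WT point for most members, while the pair lies close together for Med29, Taf1d, Gtf2f1 and Polr2b.

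4 members, Med12, Med14, Taf1 and Taf9b, lie on the X chromosome, and a male embryo has no paternal X. The libraries fell apart by counts of 6 Y-linked genes: 6 WT libraries had 146 to 387 CPM of them, and WT replicates 3 and 8 had 0.386 and 0. In the 6 libraries with Y counts, paternal shares were 0.441% for Med14 (8 of 1815 allele counts), 0 of 208 for Taf1 and 0 of 4173 for Taf9b. In the pair without, they were 25.1% (22.7 to 27.5%) for Med14, 47.3% (36.9 to 57.9%) for Taf1 and 0.667% for Taf9b, with Med14 at 39.8% in replicate 3 and 5.99% in replicate 8. In KO only replicate 1 had under 1 CPM of Y genes, and there Med14 had 10.7% (17 of 159) and Taf1 53.8% (7 of 13), against 0.0671 and 0.709% in the other 8 libraries. Over the X-linked genes of the RefSeq table the paternal share was at most 0.217% in each library with Y counts. The pooled shares of the X-linked members, 10.7% for Med14 and 14.6% for Taf1 in WT, therefore mix libraries of both kinds. Leaving them out gave medians of 26.1% in WT and 5.17% in KO.

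The rest of the transcription apparatus gave a frame for these values. Of 52 other genes of the pathway, 47 were compared in WT, with 25 higher and 5 lower at the 2-cell stage and a median of 1.12, against 42.1 and 12.8% of all genes and a median of 0.69. In the KO stage comparison 37 were compared, with 5 higher and 9 lower, against 19.5 and 16.3% of all genes. Between the 2-cell groups 0 of 47 were higher and 23 (48.9%) lower in KO, with a median of -0.92, against 5.96 and 31.6% of all genes and a median of -0.35. TBP (Tbp), the DNA-binding core of TFIID, went from 45.7 to 168 CPM in WT, a log2 ratio of 1.88, was at 1.49 in KO and at -0.26 between the 2-cell groups. The germ-cell TAF Taf4b was at 1.97 in WT, and Taf7l had no count in WT oocytes, reached 25.2 CPM in the WT 2-cell pool and was at -4.91 between the 2-cell groups. Cdk7, the kinase of TFIIH, and cyclin C were at -1.60 and -2.51 between the 2-cell groups, and Cdk8 at -0.44. Among 15 subunits of RNA polymerases I and III compared in WT, 10 were higher and 0 lower, and 11 of 15 (73.3%, against the same 31.6%) were lower in KO than in WT 2-cell samples.

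In the epiblast the same genes were compared between cultured and E6.5 samples with edgeR's quasi-likelihood test, adjusted over 11565 genes by the Benjamini-Hochberg method. Each group is a table of its own with 2 samples, so group and table cannot be told apart. Rn45s took 0.101 and 0.121% of counts in IVC and 26.2 and 23.3% in E6.5, and 8380 and 8990 genes had a count in IVC against 13101 and 13698 in E6.5. The 6 epiblast markers summed to 1135 and 1066 CPM in IVC and 4451 and 5185 in E6.5, while visceral endoderm markers summed to 384 and 480 against 86.5 and 102. The part of all these in the results was not tested, and in such bulk samples fewer cells of a type cannot be told from less RNA per cell.

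Of 75 members tested, 21 were higher in IVC and 11 lower, against 12% and 23.5% of all genes, and their median log2 fold change was 0.20, with -0.85 over all genes. Of the 12 core subunits, 10 rose in IVC. Polr2k had 311 and 346 CPM in IVC and 6.51 and 7.78 in E6.5, a log2 fold change of 5.79 (SE 0.27, edgeR with Benjamini-Hochberg adjusted p = 0.0039). Polr2f had 528 and 497 CPM against 34.2 and 36.3, a fold change of 4.13 (SE 0.19, edgeR adjusted p = 0.0038). Polr2j, Polr2l, Polr2i, Polr2g, Polr2d, Polr2h, Polr2e and Polr2c also rose, by log2 values of 1.84 to 5.15.

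Polr2a went the opposite way. It had 2.79 and 6.64 CPM in IVC and 522 and 514 in E6.5, a log2 fold change of -6.51 (SE 0.57, edgeR adjusted p = 0.010). Polr2b, the other large subunit, was at -0.54 and did not pass. Polr2a and the 10 smaller subunits thus moved in opposite directions in the same 4 libraries.

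Outside the polymerase, Gtf2a2, Med7, Med21, Gtf2h5, Med10, Med8, Taf13, Med29, Taf12, Taf9 and Gtf2a1 rose in IVC, by log2 values of 1.38 to 4.73. Gtf2a2, the small TFIIA subunit, had 362 and 392 CPM against 20.2 and 14.0. Of the kinase module, 3 of 4 genes fell: Med13 with 29.6 and 40.03 CPM against 212 and 204, Med12 with 18.6 and 12.01 against 119 and 129, and Med12l. Med12l, Med15, Taf1c, Taf6l and Taf9b had no count in either IVC sample, and set against 3 counts over the group they were at least 57.7, 176, 154, 103 and 23.6-fold lower. Med24, Med17 and Med26 each had 1 count in the pair of IVC samples. Med24 had 87.4 and 95.8 CPM in E6.5, a ratio of 1918 with a counting interval of 344 to 75777. The calls of lower members were not stable: 1 was called without either E6.5 sample, while 26 and 32 were called without IVC replicate 1 or 2, and the higher calls ranged from 11 to 31.

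**Figure D5:**
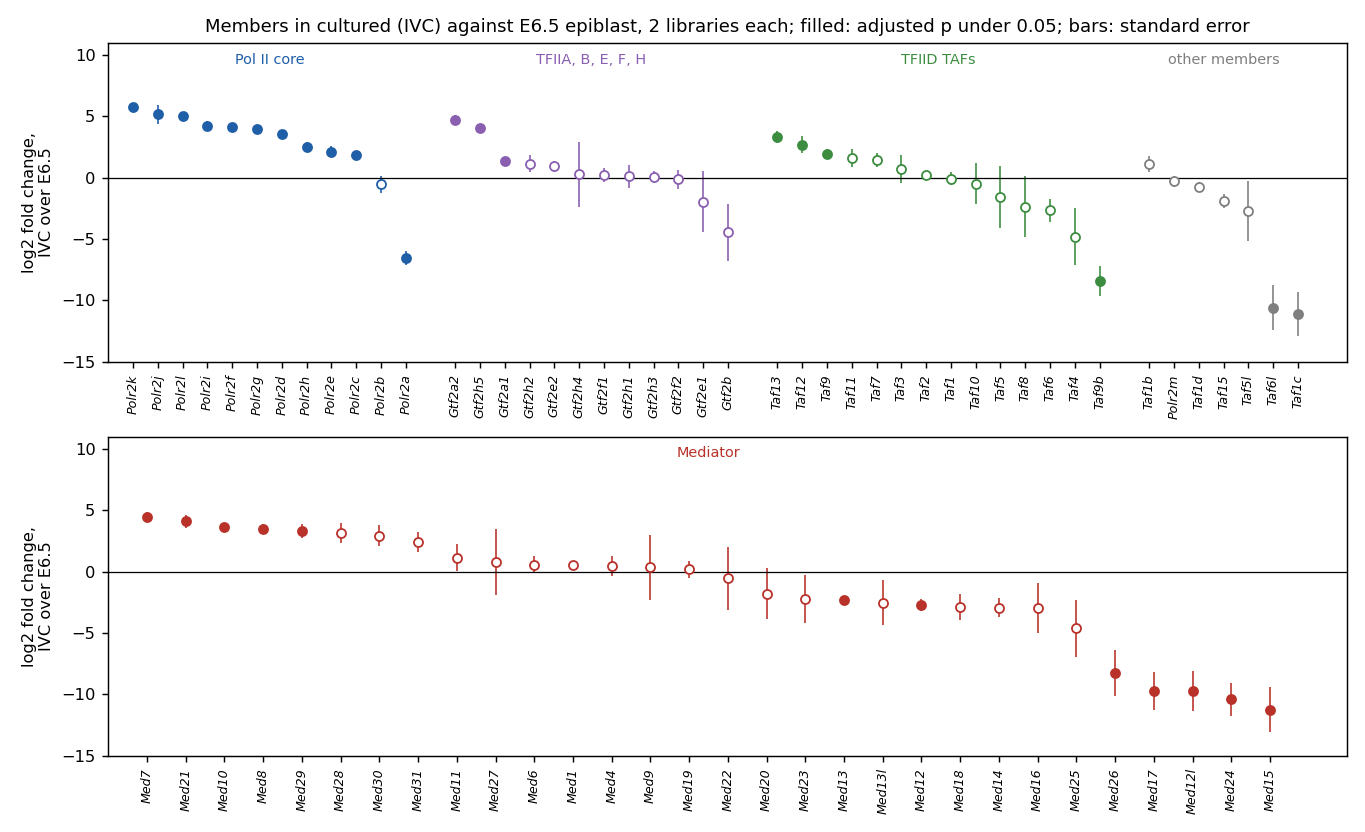
Log2 fold change, IVC minus E6.5 epiblast, of each tested member, grouped along the x axis by role and ordered by value, with bars for the standard error and filled points for an adjusted p under 0.05 in edgeR (2 samples a group). The core subunits lie at 1.84 to 5.79 apart from Polr2b at -0.54 and Polr2a at -6.51.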

How the data were processed

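Deposited tables held raw counts per gene symbol, made by the authors and not normalized; a pair of further tables held the counts they assigned to maternal and paternal alleles. Per the submitters' processing notes, the tools of the whole series were Bismark 0.23.0, HTSeq 0.10.0, MethylDackel 0.5.0, SAMtools 0.1.18, STAR 2.6.0a, Trim Galore 0.6.6, cutadapt 1.15 and featureCounts 2.0.1, with build mm9 and no role or order. Which of them made the counts, and whether strand was used, is not given in the sources used here. In the allele tables the 33 oocyte columns were not split. The 155 samples of other assays were not analysed here. Positions and promoters come from RefSeq GRCm38.p6, which is not the build of the counts.

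From these counts, 92 ERCC spike-in features were taken out and CPM computed over 24450 genes (Python 3.11.15, pandas 2.3.3, scipy 1.17.1). Because libraries are single oocytes or single 2-cell samples with no animal named, counts were pooled per group. Pools were compared by the log2 ratio of CPM with its exact 95% conditional Poisson interval, wherever 1 of the pools reached 10 CPM. A ratio of 2-fold or more counted as higher or lower. Such intervals cover counting error only, since reads without molecular identifiers are not independent molecules. Oocyte sets (ERCC above 0.01% of counts; otherwise Rn45s under 1%) were defined from the data and are not groups of the study. Paternal shares are pooled paternal over allele-assigned counts, with exact Clopper-Pearson intervals, for genes with 50 or more in each genotype.

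For epiblast, the test was edgeR 4.0.16 (glmQLFTest, two-sided, after TMM and filterByExpr) on both tables joined by 24446 symbols, with Benjamini-Hochberg adjustment over all genes at 0.05; the samples' origin from separate embryos is not stated, so p-values measure the spread between these samples. Same-numbered epiblast replicates had deviations correlated at 0.00084, so numbers were not read as pairs. Alternatives were TMM or DESeq2 1.42.0 size factors, ERCC scaling, all libraries, other filters and leaving out each library. Deposited libraries were checked for copies, and none was found. The pooled ratio and the epiblast edgeR test were run on simulated counts, and the paternal share procedure was not.

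Members and gene lists were chosen with earlier results of these data known. Members with values per library were those with the 6 highest and 6 lowest ratios per comparison, at 20 CPM or more and with a count in 50% of the higher pool's libraries, paralog pairs, Polr2a, the 6 highest and lowest paternal shares, and the epiblast calls. Others named were chosen after their values were seen.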

Additional observations from a re-analysis of the deposited data

Results flagged for a closer look

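In the 2-cell groups 40 sets of values were examined for 1 library far from the rest. They were those of 19 members and of the paternal share over all genes, each in the 8 WT and in the 9 KO libraries. Of these sets, those of 4 members had such a library. Chance alone gives about 1 in 20 sets where sets are independent. These sets share libraries, and all members but Polr2a were picked by extreme ratios in the same data. The 4 are thus not separate events. All 4 were the lowest value of WT 2-cell replicate 8: Gtf2h5 at 28.9 CPM, Polr2h at 14.7 CPM, Polr2k at 4.66 CPM and Taf1d at 81.6 CPM. The same library had the lowest paternal share of all WT 2-cell libraries over all genes, 4.00%, and the highest WT 2-cell values of Med15, Med25, Med27, Med30 and Taf8. It was also the deepest WT 2-cell library, with 10303580 counts against a WT median of 4666426, so it weighs most in the pooled WT values. Its ERCC percentage was the lowest of the WT 2-cell libraries, at 0.0583% against a median of 0.114%. The same held for Rn45s, at 0.621% against a median of 1.21%. Whether its stage or its quality differed was not tested.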

How the results depend on the processing

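Scaling moved the counts of members at 2-fold. For WT 2-cell samples over oocytes 13 were higher and 23 lower with TMM, 13 and 26 with DESeq2 factors, and 10 and 28 on the ERCC scale. In the KO, 5 were higher with TMM, 5 with DESeq2 factors and 15 with all oocytes, and 3 were higher and 26 lower on the ERCC scale. For KO over WT 2-cell samples 12 were higher with TMM, 12 with DESeq2 factors, 5 with the mean of library CPM, 19 on the ERCC scale, where 11 were lower, and 7 without KO replicate 4 and WT replicate 8 together. For KO over WT oocytes 1 was higher and 0 lower with all libraries, 17 and 0 on the ERCC scale, and 0 and 0 with low-rRNA libraries only. ERCC scaling in oocytes, totals without Rn45s, the pair of left-out libraries and leaving out X-linked members were chosen after seeing the data. Every 2-cell library was in the spike-in set, so using all libraries changed nothing between the 2-cell groups.

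Among members at 2-fold or more, signs reversed with all libraries for Med17 (-0.44) and Polr2d (-0.34) in the WT stage comparison and for Gtf2a1 (-0.27) and Polr2e (0.069) in the KO one. On the ERCC scale they reversed, again among members at 2-fold or more, for Med17 (-0.064), Polr2d (-0.096) and Polr2j (-0.0090), and with low-rRNA oocytes for Med25 (-0.10, under 10 CPM there) and Med6 (0.54). Smaller ratios changed sign more often: 42 were above 0 on CPM and 24 on the ERCC scale in WT, 38 and 16 in KO. In epiblast, leaving out IVC replicate 1 or 2 moved Med9 between -10.76 and 1.33, Gtf2h1 between 0.89 and -1.68, Gtf2h4 between 1.28 and -11.36, and Med27 between 1.78 and -10.67. The cause was not tested.

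Leaving out 1 library at a time gave 26 to 29 higher and 7 to 11 lower for the WT stage comparison, 7 to 11 and 14 to 15 for the KO one, 1 to 9 and 21 to 25 between 2-cell groups, and 6 to 7 and 2 to 3 between oocytes. Paternal medians ran from 22.1 to 29.5% in WT and 3.59 to 4.73% in KO, with 29 to 40 members lower in KO and 27 to 35 (WT) and 5 to 8 (KO) at 25% or more. In epiblast 11 to 31 were higher and 1 to 32 lower, and 5 were lower with no filter on low counts. With the replicate number as a block 14 members were higher and 3 lower. Counting error was widest for members with few counts, such as Med29 with 18 in the WT oocyte pool. How far depth limits single members was not tested.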
